A study of Mus musculus with 24 samples.

Results

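The 8 genes S100b, Mbp, Gap43, Ngfr, Cdh19, Nrcam, Gldn and Dusp15, which are known from Schwann cells and peripheral nerve, were followed in the mouse mammary gland. Members were every non-control probe carrying 1 of these gene names, which gave 16 of 56605 probes and 8 of 36591 gene names on the array. The tissue was the number 4 inguinal gland with its lymph node taken out, from C57BL/6 females measured as 1 sample per animal on 1-colour arrays. The groups were 7 wild-type and 7 knock-in virgins, all 8 weeks old, and 5 mice of each genotype at pregnancy day 18, where knock-in means 2 copies of a SOCS2 allele with the R96C change. The allele is in the germ line, so every cell of the animal carries it, nerve and epithelium alike. The labels read here give no age for the pregnant mice, and pregnancy and age cannot be told apart.

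Schwann cells ensheathe the axons of peripheral nerves. Some wrap an axon in compact myelin, leaving gaps called nodes of Ranvier where sodium channels cluster, and others hold bundles of thin axons without myelin. Nerve fibres reach the mammary gland along its vessels, ducts and nipple, and make up little of its tissue. SOCS2 is a feedback inhibitor of cytokine signals such as those of growth hormone and prolactin.

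Of the 16 member probes 10 passed the filter on dim probes, with at least 1 for each of the 8 genes, among 35117 probes and 22382 genes that passed. The 6 others, 3 of Dusp15 and 3 of Nrcam, failed it, so those genes rest on 1 probe each. A probe reads a 60-base stretch of a transcript, and the bases printed here are the first 30 of each, 5′ to 3′, from the deposited array annotation, because each stands for a whole gene in what follows. None is marked in capitals, since no part of a probe was measured separately.
S100b: gaagctggacttgaggctttctaacttgca
Dusp15: ctggggcagcctgaactactcaacacattt
Gldn: ccatcagtaaccacagattctaaacgacca
Nrcam: gcatacgtttttgttcagagtggggttttt
Gap43: gttccgttctgaggagtccaaaatattaag
Ngfr: tccagctggcgactatgagatccagacctc
Cdh19: ctgtgcagagatcaatttttaacaacaagg

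On the mm9 assembly the S100b probe lies at chr10:75723783-75723842 on the plus strand. Dusp15 is read at chr2:152766748-152766807 on the minus strand, and Gldn at chr9:54189513-54189572 on the plus strand. Nrcam is read at chr12:45699758-45699817, plus strand, Gap43 at chr16:42248714-42248773, minus strand, Ngfr at chr11:95430211-95430270, minus strand, and Cdh19 at chr1:112785846-112785905, minus strand. Mbp has 3 probes that passed, and their sequences are not shown here. The files name a transcript for each probe and do not say which exon, coding or untranslated, it falls in.

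Values are log2 signals with the array's 75th percentile set to 0. They compare 1 probe between arrays and do not compare probes with each other, because probes differ in how brightly they bind. A list of 34 Schwann and myelin genes, of which 32 passed the filter, was counted beside the members. It was chosen with earlier results of these data known, so it does not check the nerve label independently. Spots well above background numbered 33374 to 57003 of 59305 on each array, and the number of arrays limits precision. The array of knock-in virgin 376 had 57003 such spots, and its negative controls read 339 where the other arrays read 27.8 to 50.1. Knock-in day-18 mouse 184 had 43055 such spots, and knock-in virgin 198 had the lowest luminal epithelial score, -3.07. All 3 were kept, and results are also given without them. In bulk tissue, fewer cells of a type and less RNA per cell cannot be told apart.

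By pregnancy day 18 most of these genes were lower. In wild-type glands 6 of the 8 genes fell and 0 rose (limma, adjusted p under 0.05 over all genes), where 20.9% of all genes tested fell and 20.9% rose. The member median was -2.62, and the median of all genes was 0.01. Gap43 and Gldn were at background on all wild-type day-18 arrays. With both set to the approximate lower bounds of their fall, given further on, the member median was -2.09. In knock-in glands 4 of 8 fell and 1 rose, where 20.3% of all genes fell and 22.9% rose, with medians of -1.39 and 0.05. Counted by probe, 8 of 10 fell in wild type (20.7% of all probes did), and in knock-in 6 of 10 fell (20.2%) and 1 rose (19.3%). S100b, Gap43, Dusp15 and Gldn fell in both genotypes, Ngfr and Nrcam in wild type, and Cdh19 in neither. Gap43 and Gldn passed the filter only through the virgin groups, where they were high, and Cdh19 only through the wild-type virgins. For these genes the filter favoured a fall over a rise, which limits what their part in the counts can show. The Mbp probes went opposite ways. The plot of levels by gland shows the 7 genes with 1 usable probe, and that of stage differences sets both genotypes side by side.

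**Figure D1:**
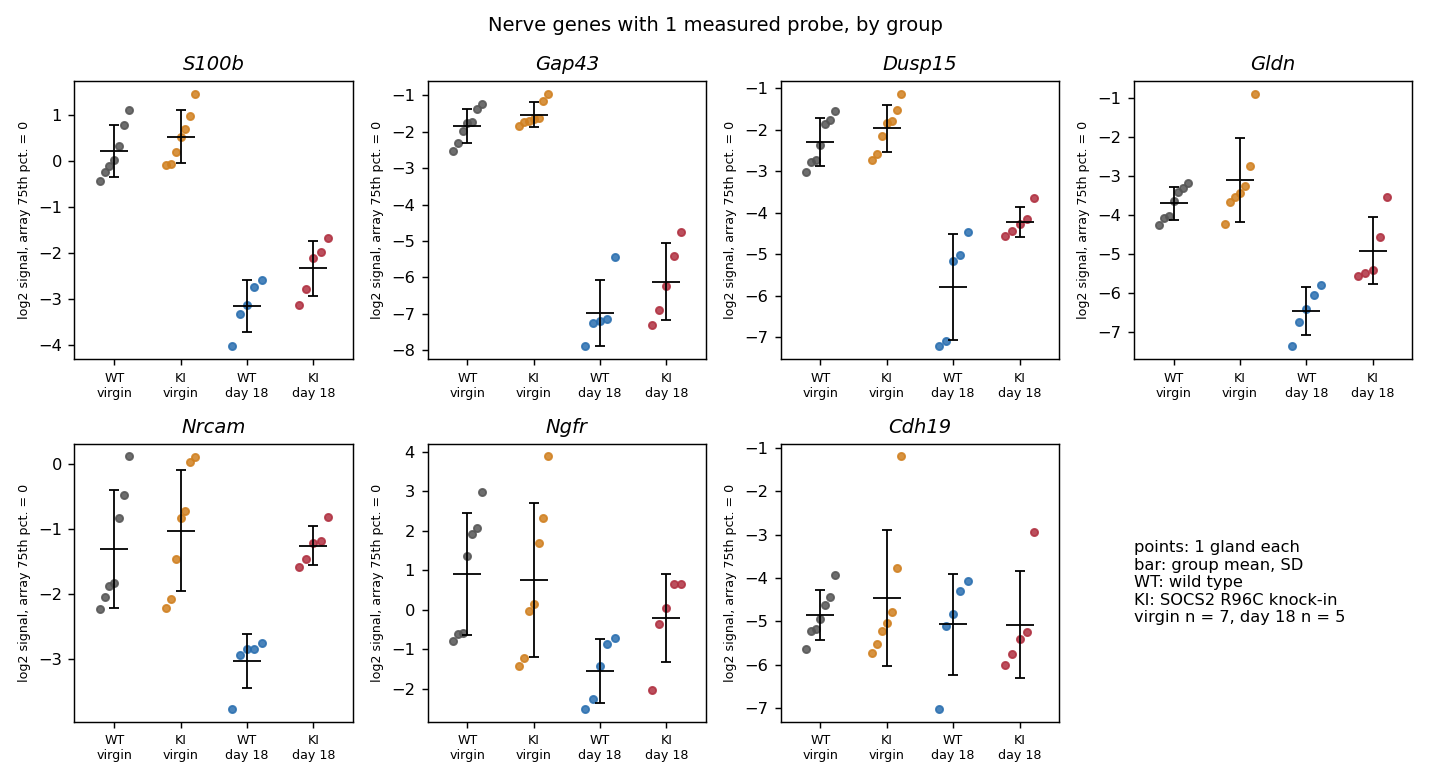
Log2 signal relative to the array's 75th percentile for 7 genes; each point is 1 gland, and bars give the group mean and SD for 7 virgin or 5 day-18 animals. S100b, Gap43 and Dusp15 have day-18 points below all virgin points of the same genotype, and the 5 knock-in day-18 points of Nrcam lie above the 5 wild-type ones.

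S100b, a calcium-binding protein used to mark Schwann cells and also known in adipocytes, was read on all 24 arrays. Wild-type virgins ran from -0.42 to 1.12 with a median of 0.02, and knock-in virgins from -0.09 to 1.47 with a median of 0.52. Day-18 wild-type glands had -4.03, -3.32, -3.12, -2.73 and -2.58, and knock-in glands -3.12, -2.79, -2.10, -1.98 and -1.68. No day-18 gland reached the level of any virgin gland. The difference was -3.37 ± 0.33 (SE; 10.4-fold lower, adjusted p = 3.35e-08, 5 against 7) in wild type and -2.87 ± 0.33 (7.30-fold lower, adjusted p = 3.15e-07) in knock-in. Groups failed to overlap this way for 18.9% of all genes in wild type and for 7.65% in knock-in. Within slides 1, 2 and 3 the wild-type difference was -2.79, -4.26 and -3.11. White adipocyte markers moved the same way: 5 of 10 fell in wild type and 6 of 10 in knock-in. Their mean level was 5.52 to 5.89 in wild-type virgins and 4.37 to 4.80 at day 18, and 3.95 to 5.98 and 3.31 to 4.66 in knock-in glands. Their part in the S100b result was not tested.

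Cdh19, a cadherin of the Schwann cell lineage, was close to background. Its probe was well above background on 6 of 7 wild-type and 4 of 7 knock-in virgin arrays and on 3 of 5 and 1 of 5 at day 18. Wild-type virgins had -5.64 to -3.92 (median -4.95), and day-18 glands -7.03, -5.12, -4.83, -4.31 and -4.08. Knock-in virgins had -5.73 to -1.19 (median -5.03), and day-18 glands -6.02, -5.76, -5.41, -5.26 and -2.93. The groups overlapped throughout, and the 2 highest knock-in values belong to mice 376 and 184. The stage difference was -0.22 ± 0.66 in wild type (adjusted p = 0.827) and -0.61 ± 0.66 in knock-in (adjusted p = 0.487), so a change was not detectable at this signal.

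Mbp encodes myelin basic protein, which holds the inner faces of the myelin membrane together; its locus also makes the longer Golli transcripts, known outside myelin as well. The most upstream of its 3 probes, A_52_P604195, is annotated to another transcript than the pair downstream, A_52_P329451 and A_55_P2889696, which lie 14337 and 26103 bp from it and 11766 bp apart on mm9. The upstream probe had 1.40 to 2.26 (median 1.77) in wild-type virgins and 2.07, 2.13, 2.17, 2.43 and 2.52 at day 18. In knock-in virgins it had 0.21 to 2.13 (median 1.86), and at day 18 it had 2.13, 2.18, 2.27, 2.34 and 2.38. The lowest knock-in day-18 value exceeded the highest knock-in virgin value by less than the rounding, as every day-18 value exceeded every virgin one for 12.6% of all genes in knock-in, while the wild-type groups overlapped. The difference, day 18 minus virgin, was 0.56 ± 0.24 in wild type (adjusted p = 0.0669) and 0.64 ± 0.24 in knock-in, where it passed (adjusted p = 0.0344). Without mice 376 and 184 these were 0.56 (adjusted p = 0.00204) and 0.43 (adjusted p = 0.0251). The knock-in call ended without day-18 mouse 210 (0.64, adjusted p = 0.0606), 239 (0.62, adjusted p = 0.0677) or 183 (0.61, adjusted p = 0.0709), and the wild-type difference passed without virgin 369 (0.65, adjusted p = 0.0355) or 376 (adjusted p = 0.00178). Scaled to the spike-in controls both turned negative, to -0.36 and -0.19.

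The downstream probes fell. A_55_P2889696 had -2.43 to -0.58 (median -1.52) in wild-type virgins and -5.10, -4.72, -4.21, -3.34 and -3.26 at day 18. No wild-type day-18 gland reached a virgin one, and the difference was -2.71 ± 0.51 (adjusted p = 0.00017 over all probes). In knock-in it had -1.85 to -0.18 (median -0.75) in virgins and -5.09, -3.95, -2.40, -1.87 and -1.48 at day 18. Those groups overlapped, with a difference of -2.12 ± 0.51 (adjusted p = 0.00173). A_52_P329451 fell by 2.36 ± 0.55 in wild type (adjusted p = 0.00144; above background on 3 of 5 day-18 arrays) and by 1.82 ± 0.55 in knock-in (adjusted p = 0.0106; 4 of 5). With another background correction (normexp) its differences were -0.63 and -0.71 and passed in neither genotype (adjusted p = 0.134 and 0.0919). That correction was run with an offset of 50 added to every signal, which by itself shrinks the differences of dim probes. Without knock-in day-18 mouse 210 its knock-in call ended (adjusted p = 0.0537). At gene level Mbp is represented by its brightest probe, the upstream one. Averaged over all 3 probes Mbp fell, by 1.51 in wild type (adjusted p = 0.000805) and by 1.10 in knock-in (adjusted p = 0.00973).

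**Figure D2:**
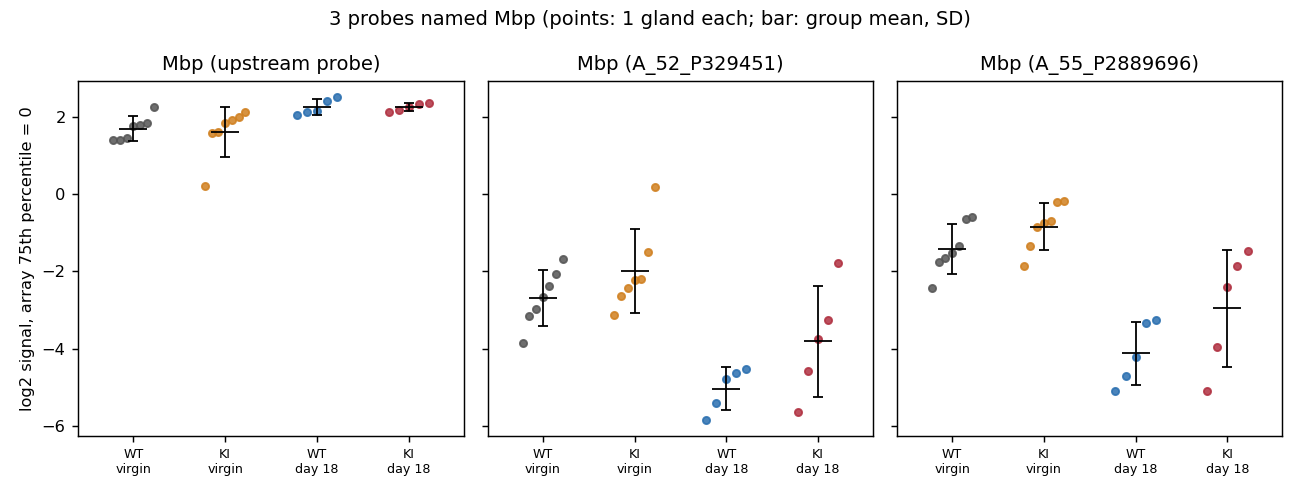
Log2 signal relative to the array's 75th percentile for the 3 Mbp probes in the 4 groups; each point is 1 gland and bars give the group mean and SD for 7 virgin or 5 day-18 animals. The upstream probe sits between 2.07 and 2.52 in every day-18 gland, while A_52_P329451 and A_55_P2889696 are lower on average at day 18 than in virgins. Heights of different probes are not comparable.

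Dusp15, a dual-specificity phosphatase known in myelinating glia, had -3.02 to -1.55 (median -2.37) in wild-type virgins. At day 18 the wild-type values were -7.22, -7.10, -5.16, -5.02 and -4.46, with 2 of 5 arrays well above background. Knock-in virgins had -2.72 to -1.13 (median -1.83), and day-18 knock-in glands -4.57, -4.45, -4.27, -4.14 and -3.64, with 4 of 5 above background. All day-18 glands lay below all virgin ones in both genotypes. The fitted differences were -3.50 ± 0.41 (adjusted p = 5.95e-07) and -2.26 ± 0.41 (adjusted p = 0.000122). Those sizes rest partly on arrays at background, and with the normexp correction they were -0.94 (adjusted p = 0.000203) and -0.88 (adjusted p = 0.000422).

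Gliomedin, the product of Gldn, is secreted by myelinating Schwann cells at the node, where it binds neurofascin and NrCAM and gathers sodium channels. Gldn had -4.26 to -3.18 (median -3.64) in wild-type virgins, all above background, and -7.37, -6.74, -6.40, -6.06 and -5.79 at day 18, with 0 of 5 arrays above background. Set against the dimmest signals well above background on those arrays, it was at least 2.96-fold lower (adjusted p = 2.61e-05 in the fit). Such bounds use, on each dim array, the dimmest signal that still stood well above background, or the probe's own where that was higher. They are approximate and leave out sampling error, because some brighter spots were not called above background. Cdh19, at -5.26, was not called in knock-in day-18 mouse 183, where the dimmest signal well above background was -5.38. Knock-in virgins had -4.22 to -0.88 (median -3.44), and day-18 knock-in glands -5.55, -5.48, -5.41, -4.56 and -3.54, with 2 of 5 above background. Those groups overlapped, with a difference of -1.80 ± 0.44 (adjusted p = 0.002). With the normexp correction the Gldn calls ended in both genotypes, at -0.32 (adjusted p = 0.3) and -0.43 (adjusted p = 0.15). Its offset shrinks differences at so dim a signal, so those values cannot decide whether Gldn fell.

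Nrcam, the adhesion molecule on the axon side of that contact, was measured on all 24 arrays. Wild-type virgins had -2.23 to 0.12 (median -1.83), and day-18 wild-type glands -3.77, -2.93, -2.85, -2.85 and -2.75. The wild-type groups did not overlap, with a fall of 1.72 ± 0.42 (3.30-fold, adjusted p = 0.00196). Knock-in virgins had -2.21 to 0.11 (median -0.83), and day-18 knock-in glands -1.58, -1.46, -1.21, -1.19 and -0.82. All 5 lay inside the range of the knock-in virgins, with a difference of -0.23 ± 0.42 (adjusted p = 0.696, 95% interval -1.10 to 0.64). The test of the difference between genotypes is given with the genotype comparisons.

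Gap43, a growth-cone protein of regrowing axons that Schwann cells without myelin also make, was above background on all 14 virgin arrays and on 0 of 10 at day 18. Wild-type virgins had -2.54 to -1.24 (median -1.77), and knock-in virgins -1.85 to -0.96 (median -1.66). Day-18 readings ran from -7.87 to -5.43 in wild type and from -7.29 to -4.75 in knock-in, below every virgin reading. Gap43 was at least 10.6-fold lower in wild type (adjusted p = 9.19e-10 in the fit) and at least 10.7-fold lower in knock-in (adjusted p = 5.01e-09). These bounds are approximate, as described for Gldn. With the normexp correction the fitted differences were -1.40 (adjusted p = 1.63e-06) and -1.43 (adjusted p = 1.08e-06), so the calls stood at sizes smaller than these bounds. The offset of that correction shrinks the differences of dim probes, so those sizes do not test the bounds.

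Ngfr, the p75 neurotrophin receptor of immature and injured-nerve Schwann cells, is also known in basal epithelium and stroma. It varied most among virgins, from -0.80 to 2.99 (median 1.35) in wild type and from -1.44 to 3.88 (median 0.14) in knock-in. Day-18 values were -2.52, -2.27, -1.43, -0.87 and -0.72 in wild type and -2.03, -0.37, 0.03, 0.65 and 0.66 in knock-in. The groups overlapped in both genotypes. The difference was -2.46 ± 0.82 in wild type (adjusted p = 0.0185; exact permutation p = 0.0101) and -0.97 ± 0.82 in knock-in (adjusted p = 0.366). The wild-type call ended without day-18 mouse 232 (adjusted p = 0.0508). Within slides 1, 2 and 3 the wild-type difference was -0.17, -3.95 and -2.90, the first with 1 day-18 array. Basal markers moved the other way, with 5 of 9 higher in wild type and mean levels of 1.13 to 2.77 in virgins and 3.83 to 3.99 at day 18. Their part in the Ngfr result was not tested.

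**Figure D3:**
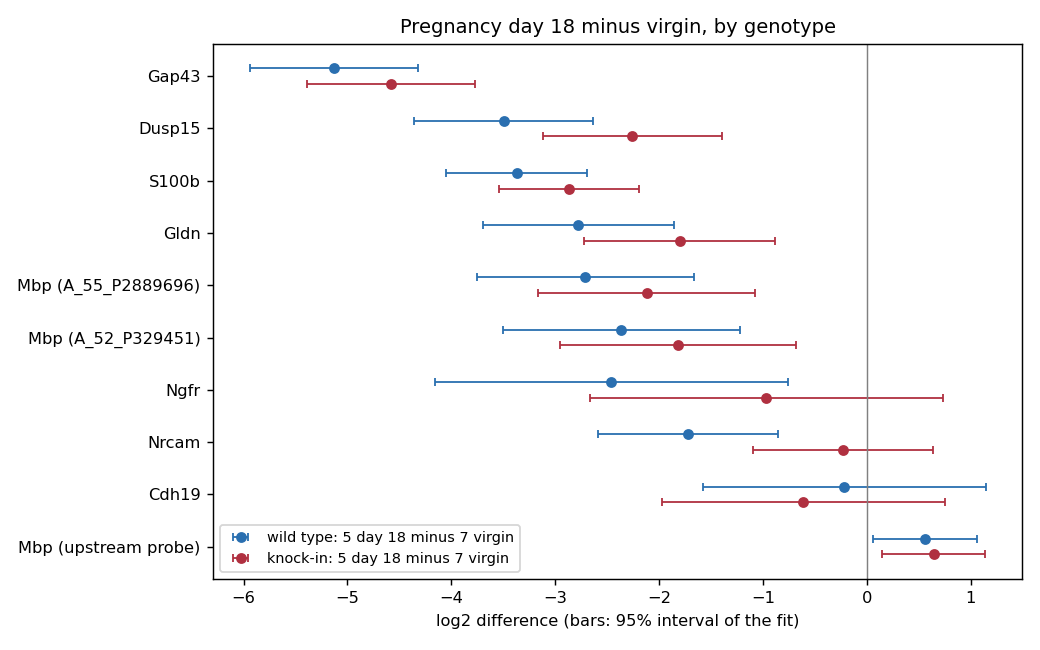
Log2 difference, day 18 minus virgin, for the 10 member probes in wild type (blue) and knock-in (red); points are fitted differences of 5 against 7 glands and bars their 95% intervals. Values for Gap43, and for Gldn in wild type, rest on day-18 arrays that were all at background. Their fold changes are given in the text as approximate lower bounds. Values for Dusp15, Cdh19 and A_52_P329451, for Gldn in knock-in and for A_55_P2889696 in wild type rest partly on such arrays. The upstream Mbp probe is the one with both points above 0.

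Leaving out mice 376 and 184, the knock-in stage difference was -3.06 for S100b (adjusted p = 4.08e-07), -2.06 for Dusp15 (adjusted p = 0.000669) and -1.77 for Gldn (adjusted p = 5.26e-05). Nrcam then had -0.29 (adjusted p = 0.636) and Ngfr -1.03 (adjusted p = 0.367). The same member genes passed as with all arrays, and the Gap43 call also stood (adjusted p = 2.22e-09). Leaving out mouse 198 as well ended the upstream Mbp call in knock-in (0.38, adjusted p = 0.0535).

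The ordering of group means was alike for S100b, Gap43, Dusp15, Gldn and the downstream Mbp probes: knock-in virgin, wild-type virgin, knock-in day 18, wild-type day 18. The first pair of neighbours did not differ beyond their spread for any of these, and at day 18 both groups were at background for Gap43, as was wild type for Gldn. Nrcam differed in order, with knock-in day 18 at -1.25 ± 0.29 (SD, n = 5) above wild-type virgins at -1.31 ± 0.91 (n = 7), a gap smaller than their spread. Ngfr placed wild-type virgins first, at 0.90 ± 1.55 against 0.76 ± 1.95 in knock-in virgins, again within the spread.

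Other genes of nerve were counted from 4 lists. These lists, like the members, were chosen with earlier results of these data known, so their counts are not independent support. For dim list genes that passed the filter only through virgin groups, as Cntn1 did, the filter favoured a fall over a rise. How many of the genes that fell entered this way was not counted, which limits what the list counts can show. Of 34 Schwann and myelin genes 32 were tested, and 21 fell, 4 rose and 7 did not pass in wild type, with a median of -1.55, where 20.9% of all genes fell and 20.9% rose. In knock-in, where 20.3% of all genes fell and 22.9% rose, the counts were the same, with a median of -1.33, and the 21 lower and 4 higher genes were the same genes. Egr2, a transcription factor that drives myelin genes and is also an immediate early gene, fell by 3.59 ± 0.42 (adjusted p = 4.92e-07) and by 1.97 ± 0.42 (adjusted p = 0.000551). Kcna1, a potassium channel beside the node, fell by 3.0 ± 0.38 (adjusted p = 1.33e-06) and by 2.98 ± 0.38 (adjusted p = 1.27e-06).

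The 4 risers were Sox10, Gjb1, Cadm4 and Erbb3, and all 4 are known in epithelium as well as in Schwann cells. The genes that fell were not screened for expression outside nerve in the same way. Sox10, which specifies neural crest cells and is made by mammary epithelium too, rose by 3.13 ± 0.36 in wild type (adjusted p = 3.31e-07) and by 3.95 ± 0.36 in knock-in (adjusted p = 1.08e-08). Luminal epithelial markers rose with them, 4 of 8 in wild type and 6 of 8 in knock-in. Their mean level was 1.15 to 3.33 in wild-type virgins and 4.22 to 4.73 at day 18, and -3.07 to 2.85 and 4.28 to 4.98 in knock-in glands. Fibroblast markers fell, 7 of 7 in both genotypes, from 5.87 to 6.34 in wild-type virgins to 3.84 to 4.63 at day 18. The part of either in the nerve results was not tested. Scaled to spike-in controls, 26 of the 32 Schwann and myelin genes fell and 3 rose in both genotypes. The list medians were then -2.47 in wild type and -2.17 in knock-in, where those of all genes were -0.91 and -0.78. With the normexp correction 15 fell and 4 rose in both. The list medians were then -0.41 and -0.43, where those of all genes were 0.14 and 0.12. With median scaling 17 fell and 3 rose in wild type, and 12 fell and 4 rose in knock-in. Shares of all genes called under these settings are not given.

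**Figure D4:**
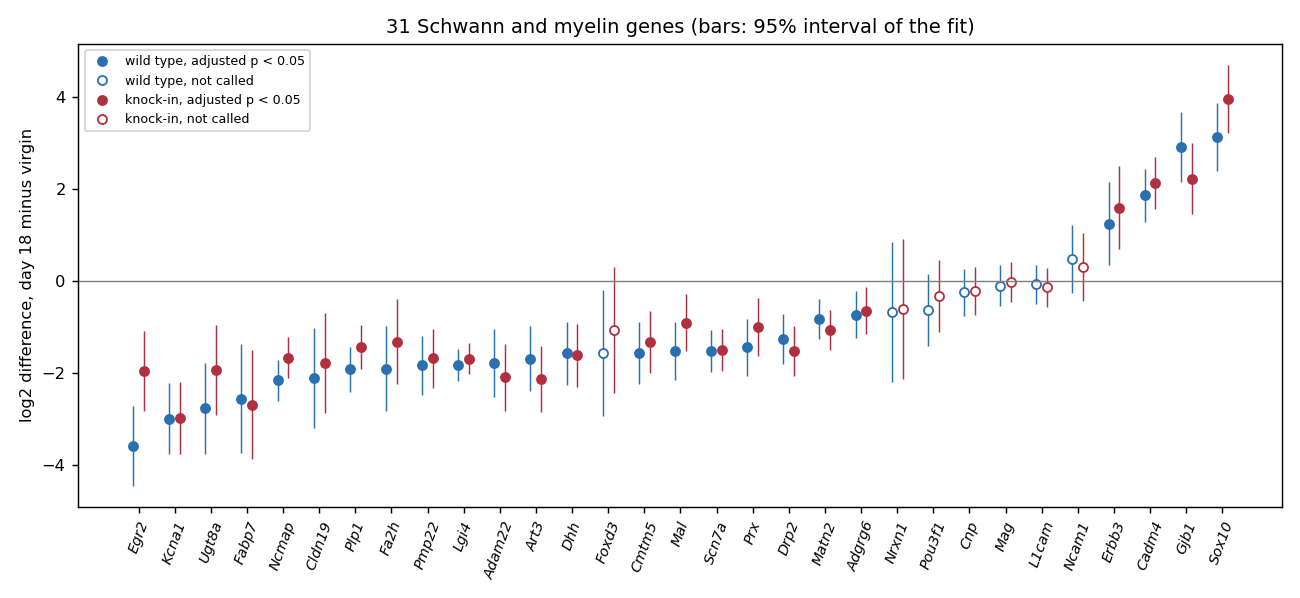
Log2 difference, day 18 minus virgin, for 31 of the 32 tested Schwann and myelin genes in wild type (blue) and knock-in (red), ordered by the wild-type value; bars are 95% intervals of the fit and open points were not called. Of these, 20 have filled points below 0 in both colours, and Erbb3, Cadm4, Gjb1 and Sox10 stand above 0.

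Of 10 genes of the node and axon-glia contact 9 were tested, and 4 fell and 2 rose in wild type (median 0.19) against 3 and 3 in knock-in (median 0.15), beside the same shares of all genes. With spike-in scaling 6 fell and 0 rose in wild type and 5 and 0 in knock-in, and with median scaling 3 fell and 1 rose in wild type and 2 and 0 in knock-in. Under spike-in scaling the list medians were -0.73 in wild type and -0.68 in knock-in, where those of all genes were -0.91 and -0.78. The list thus fell no further than the typical gene there. Shares of all genes called under these scalings are not given. Cntnap1, the axonal anchor of the paranode, fell by 2.18 ± 0.19 (adjusted p = 4.80e-09) and by 1.69 ± 0.19 (adjusted p = 1.94e-07). Its knock-in call ended with quantile normalization (-1.25, adjusted p = 0.189). Cntn1, the partner of Cntnap1, fell by 2.15 ± 0.53 (adjusted p = 0.00215) and by 1.5 ± 0.53 (adjusted p = 0.0255), with 3 of 5 day-18 arrays above background in each genotype. Its knock-in call ended with median scaling (adjusted p = 0.0562), quantile normalization (adjusted p = 0.107) and the normexp correction (-0.28, adjusted p = 0.431). Cadm3, an axonal adhesion molecule, fell by 2.59 ± 0.45 (adjusted p = 7.18e-05) and by 2.66 ± 0.45 (adjusted p = 5.06e-05). Cadm2 fell in wild type (-1.68 ± 0.52, adjusted p = 0.0112), with 1 of 5 day-18 arrays above background, and was 0.10 with the normexp correction (adjusted p = 0.717). Nfasc, named here because neurofascin is the partner of gliomedin and NrCAM, had 0.60 ± 0.36 in wild type (adjusted p = 0.197) and 1.15 ± 0.36 in knock-in (adjusted p = 0.013).

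Of 15 axon and peripheral neuron genes 8 passed the filter, and 2 fell in wild type (median 0.12) and 3 in knock-in (median 0.05). The wild-type count is near the 20.9% of all genes that fell, and in knock-in 20.3% of all genes fell. The medians of all genes were 0.01 and 0.05. Roles given for genes here and above are those of their proteins. Which cells of the gland made the RNA was not tested, so these values are not readings of nerve fibres. Stmn2, a growth-associated protein of neurons, fell by 1.19 ± 0.31 (adjusted p = 0.00304) and by 1.79 ± 0.31 (adjusted p = 5.52e-05). Uchl1, a neuronal ubiquitin hydrolase found in other cells too, fell by 1.37 ± 0.35 (adjusted p = 0.00301) and by 1.57 ± 0.35 (adjusted p = 0.000883). Th, which makes catecholamines in sympathetic fibres, fell in knock-in (-0.55 ± 0.20, adjusted p = 0.0315) and had 0.00 ± 0.20 in wild type (adjusted p = 0.99); the difference between these did not pass (-0.56 ± 0.29, adjusted p = 1). With median scaling 0 of the 8 passed in wild type, where Stmn2 had -1.01 (adjusted p = 0.0902) and Uchl1 -1.19 (adjusted p = 0.104), and 1, Stmn2, passed in knock-in. The knock-in Th call also ended with quantile normalization (adjusted p = 0.851) and with the normexp correction (adjusted p = 0.234).

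Of 15 neurotrophic ligands and receptors 12 were tested, and 5 fell and 2 rose in each genotype (medians -0.34 and -0.56), with 4 lower and 2 higher genes in common. Of all genes 20.9% fell and 20.9% rose in wild type, and 20.3% and 22.9% in knock-in. With median scaling 3 fell in each genotype, and with spike-in scaling 8 fell in wild type and 9 in knock-in. Under spike-in scaling the list medians were -1.26 in wild type and -1.39 in knock-in, where those of all genes were -0.91 and -0.78. Shares of all genes called under these scalings are not given. Gfra2, the neurturin co-receptor, fell by 2.58 ± 0.26 (adjusted p = 4.78e-08) and by 2.15 ± 0.26 (adjusted p = 5.56e-07), while its ligand Nrtn rose by 1.83 ± 0.26 (adjusted p = 7.15e-06) and by 2.10 ± 0.26 (adjusted p = 1.14e-06). Gfra3, the artemin co-receptor, fell by 1.59 ± 0.25 (adjusted p = 1.90e-05) and by 2.40 ± 0.25 (adjusted p = 8.13e-08). Ntrk2, the receptor of brain-derived neurotrophic factor, fell by 1.90 ± 0.31 (adjusted p = 3.22e-05) and by 2.05 ± 0.31 (adjusted p = 1.14e-05).

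Between genotypes no member passed in virgins, at day 18, in the average of both or in their difference. The share of all genes called was 0% in each (limma, adjusted p under 0.05). In virgins 0 of the 8 members had an unadjusted p under 0.05, against 802 of 22382 genes, and gene-level differences ran from -0.14 (Ngfr) to 0.59 (Gldn). At day 18, 4 of 8 did, S100b, Gldn, Nrcam and Dusp15, against 441 of 22382 genes, each with knock-in higher. Of these, Gldn was above background on 0 of 5 and Dusp15 on 2 of 5 wild-type arrays. The 4 genes were read on the same glands, so they are not separate observations, and an excess among members was not tested. Averaged over stages 5 of 8 had an unadjusted p under 0.05 (1160 of all genes) with adjusted p = 0.651 or more. The stage and genotype comparisons share groups, so they are not separate evidence.

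Nrcam at day 18 was -3.77 to -2.75 in the 5 wild-type and -1.58 to -0.82 in the 5 knock-in glands, with no overlap. Among all genes 0.442% had every knock-in value above every wild-type value at day 18. The difference was 1.78 ± 0.45 (3.44-fold higher, adjusted p = 1; exact permutation p = 0.00794, two-sided, the smallest that 5 against 5 allows, 1 of 40 such tests on members). Within slides 1, 2 and 3 it was 1.55, 1.75 and 1.73. Without mouse 184, and mouse 376 in virgins, it was 1.67 (adjusted p = 0.428). In virgins the genotypes overlapped, with 0.29 ± 0.38 (adjusted p = 0.739), and the difference of the genotype effects was 1.49 ± 0.59 (adjusted p = 1, unadjusted p = 0.0195). That interaction is also the difference between the stage effects, so their unequal size did not pass the test.

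Gldn at day 18 was -7.37 to -5.79 in wild type and -5.55 to -3.54 in knock-in, but all 5 wild-type and 3 of 5 knock-in arrays were not well above background, so no fold is given (adjusted p = 1). Dusp15 had a difference of 1.58 ± 0.45 (adjusted p = 1; exact permutation p = 0.0159), overlapping between -4.57 and -4.46, with 2 of 5 wild-type arrays above background and a difference of 0.31 with the normexp correction. S100b had 0.82 ± 0.35 (adjusted p = 1; exact permutation p = 0.0794). The downstream Mbp probes had 1.17 ± 0.55 and 1.24 ± 0.59 (exact permutation p = 0.167 and 0.119), and without mice 184 and 376 they had 0.80 and 0.74. Ngfr had 1.35 ± 0.89 (exact permutation p = 0.0635). The upstream Mbp probe differed by -0.01 ± 0.26 (95% interval -0.54 to 0.53), and Cdh19 by 0.00 ± 0.71. Gap43 was at background in both groups, so no fold is given. No gene of the 4 lists passed in a genotype comparison.

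Skeletal muscle, which carries its own nerves, differed widely between glands. The mean level of 8 muscle markers was -4.99, -4.24, -4.10, -3.37 and 0.40 in wild-type day-18 glands and -4.65, -4.43, 0.90, 4.43 and 5.92 in knock-in ones, and 0 of 8 passed in any comparison. The part of muscle in the day-18 differences was not tested.

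**Figure D5:**
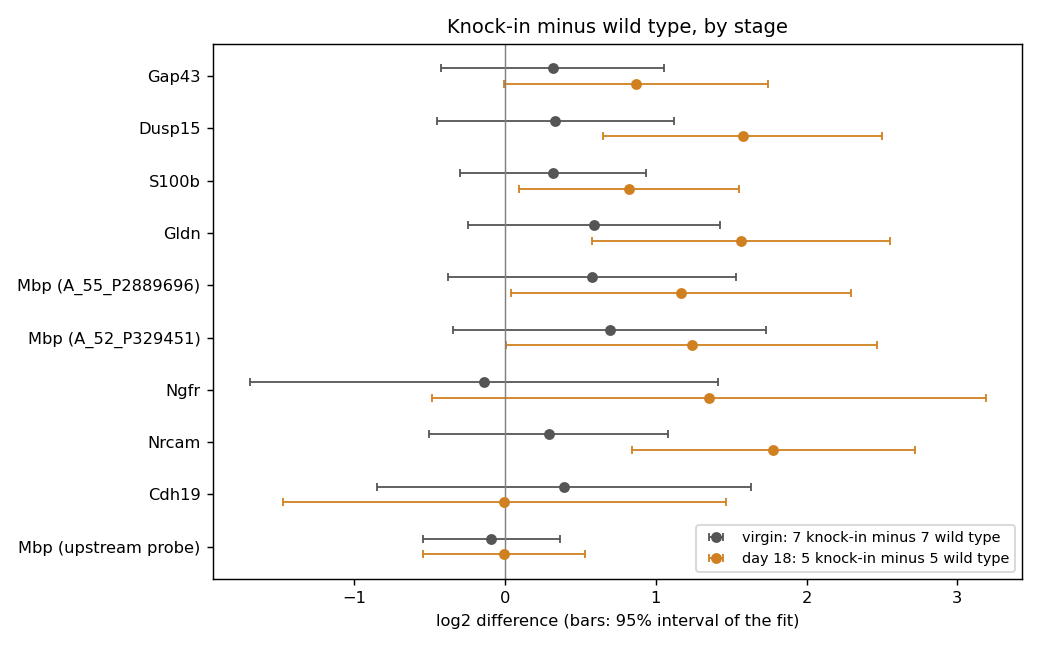
Log2 difference, knock-in minus wild type, for the 10 member probes in virgins (grey, 7 against 7) and at day 18 (orange, 5 against 5); bars are 95% intervals of the fit. Nrcam has a day-18 difference of 1.78. The day-18 points of Gldn and Gap43 rest mostly or wholly on arrays at background and give no size. Those of Dusp15, Cdh19 and the downstream Mbp probes rest partly on such arrays. No difference passed after adjustment over all genes.

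The genes most like each member were sought over the 24 arrays, by the root mean square difference of log2 values centred on each gene's own mean; lower is closer. This describes the arrays and, since groups differ, mostly follows them. The array of knock-in virgin 376 had the highest reading of all for Gldn (-0.88), Mbp probe A_52_P329451 (0.2) and Cdh19 (-1.19). Likeness was not computed without that array, so its part in these values was not tested. Roles are given below only for neighbours known from myelin, and the other neighbours were not screened. Gldn was closest to Ugt8a, an enzyme of myelin lipid synthesis (0.44), and to Cdh9 (0.46), against a median of 1.56 over all genes. Dusp15 was close to Miat (0.63), and Nrcam was closest to Mal, a myelin membrane protein (0.59), and Rgs14 (0.65). Gap43 was closest to Ptx3 (0.82) and Pllp, a myelin membrane protein (0.88), against a median of 2.56. S100b had Wfdc21 (0.38) and Olfml2b (0.48), and Ngfr had Il6 (0.87) and Gm30302 (0.96). Cdh19 had Clec1b (0.55) and Gm51431 (0.56), and the upstream Mbp probe Ric8a and Ap3d1 (0.18 each, against a median of 0.75). Among the members themselves the closest pair was Gldn and the downstream Mbp probe A_52_P329451 (0.47), closer than the downstream Mbp probes to each other (0.50). The upstream Mbp probe was 1.81 and 1.82 from the other Mbp probes.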

How the data were processed

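RNA of 24 mammary glands was measured on 1-colour Agilent arrays, 8 to a slide on 3 slides. Per the file headers, the authors extracted spot signals with Agilent Feature Extraction 12.0.3.2; the deposited values are processed signal intensity per spot, background-subtracted and not scaled between arrays, with quality calls of 0 or 1. The deposited series-wide values are log10 of that signal, differ from it by at most 0.005, and served as an alternative.

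Outlier spots were set to missing, replicate spots averaged, and log2 signals taken relative to each array's 75th percentile. The filter kept probes that stood well above background on 80% or more of any 1 group's arrays, and the brightest kept probe stood for a gene at gene level; every kept member probe was also fitted. The model held 4 group means over all 24 arrays and was fitted with limma 3.58.1 in R 4.3.3 (files read by data.table, version 1.17.8), with Benjamini-Hochberg adjustment over all genes or probes, and calls at an adjusted p under 0.05; ± gives the standard error, or the SD where so marked. Tested on simulated data for the wild-type stage comparison with 22382 genes, the fit recovered 85 of 100 genes changed by 2 and 97 of 100 changed by 3 on the log2 scale, with 12 false calls. The simulation changed 200 genes and had no background floor, while the real comparison called 4671 genes lower and 4686 higher. Its recovery and false calls therefore do not carry over to the real data. Exact tests used all 792, 3432 or 252 splits of the glands compared. Gene names came from the array and a RefSeq table, by accession for 35405 of 56605 probes, by symbol for 9124 and by synonym for 25, and 12051 kept the name in the file.

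All 8 members were named. Other named genes were the 2 most like each member, and from each nerve list at most 4 with the largest stage difference among those called; Nfasc was added for its role, and Gjb1, Cadm4 and Erbb3 after their values were seen; some genes these rules pick are not reported here. The members and lists were chosen with earlier results of these data known. Of the 10 marker lists, at day 18 skin had 1 of 2 tested genes higher in wild type and 0 in knock-in, endothelium 2 and 3 of 5 lower, lymph node and B cell 0 and 2 of 5 lower, and in both genotypes melanocyte had 1 of 4 lower and milk 4 of 4 higher. Alternatives were other scaling, background correction (normexp with an offset of 50), filters, probe summaries, slide blocks, array weights and omitted arrays.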

Additional observations from a re-analysis of the deposited data

Results flagged for a closer look

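Of 40 sets of 5 or 7 values, 1 for each kept member probe in each group, 3 had an extreme value far from the nearest other by Dixon's criterion, which chance alone gives in about 1 of 20 sets. The upstream Mbp probe read 0.21 in knock-in virgin 376, against 1.60 in the nearest gland. Nrcam read -3.77 in wild-type day-18 mouse 235, against -2.93 in the nearest gland. Cdh19 read -2.93 in knock-in day-18 mouse 184, against -5.26 in the nearest gland.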

How the results depend on the processing

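The count of member genes called stayed between 5 and 7 for the wild-type stage effect, between 4 and 5 for the knock-in stage effect and at 0 in the genotype comparisons under every alternative, single arrays left out included. S100b, Gap43, Dusp15 and A_55_P2889696 kept their stage calls in both genotypes throughout. Reversed signs were as follows; the cause was not tested. The upstream Mbp stage effects turned to -0.36 and -0.19 with spike-in scaling, and to -1.51 and -1.10 with all 3 probes averaged. The Mbp genotype difference at day 18 became 0.07 (quantile), 0.10 (spike-in), 0.00 (deposited value table), 0.80 (all probes), 0.01 (slide block), 0.05 (array weights) and 0.01 without mice 376 and 184, with or without 198; leaving out single arrays gave -0.06 to 0.06. Cdh19 became 0.36 (normexp) and 0.10 (array weights) for the wild-type stage effect, with -0.46 to 0.27 leaving out single arrays, and 0.08 (normexp) in knock-in. Its day-18 genotype difference became 0.10 (spike-in), 0.06 (normexp) and 0.01 (deposited value table), with -0.54 to 0.24 leaving out single arrays. The knock-in stage effect became 0.09 (quantile) and 0.15 (array weights) for Nrcam and 0.06 (array weights) for Ngfr. The Ngfr difference in virgins became 0.07 (quantile) and 0.02 (slide block), with -0.66 to 0.23 leaving out single arrays. The upstream Mbp call in knock-in ended with median scaling (adjusted p = 0.289), with no filter (0.0701), without knock-in day-18 mouse 210, 239 or 183, and with the compared groups alone (0.126), where that of A_52_P329451 also ended (0.0556); in wild type it passed with array weights (adjusted p = 0.000516) and with the compared groups alone (0.00881). Dim signal limits Gldn, Gap43, Dusp15 and Cdh19 at day 18. No paired analysis was possible because no animal number occurs in more than 1 group.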
